A study of Mus musculus with 12 samples.

Results

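The proteins of the cytosolic ribosome, the machine that translates messenger RNA, are encoded by a large family of genes. Members were taken by platform symbol: Rpl or Rps followed by digits with an optional a, x or y, together with the stalk genes Rplp0, Rplp1 and Rplp2 and with Rpsa, leaving out the Rps6k kinases and the paralogs whose names end in l or in l and a digit. The array named 55 such genes, and 49 of them had a detection p-value under 0.05 on at least 3 arrays, among 12379 genes tested. All 49 were detected on all 12 arrays. They comprise 19 genes of the small (40S) subunit and 30 of the large (60S) subunit, the stalk included, and lie on 17 chromosomes. The 6 that did not pass were Rpl14, with a signal over background on 1 array, and Rpl17, Rpl6, Rps20, Rps23 and Rpsa, with a signal over background on 0 arrays, although each encodes an obligatory part of the ribosome. Rpl5, Rpl10, Rpl11 and Rps27a had no probe with a single symbol and were not analysed here.

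The samples were hindbrain choroid plexus (CP) tumors of Math1-cre;Rosa26-NICD1 mice and CP of wild-type mice, all C57BL/6, at P0 (the day of birth) and at P21 (postnatal day 21). In the tumor mice, Cre made under the Math1 promoter turns on NICD1, the active intracellular part of Notch1, from the Rosa26 locus, so the transgene acts only in cells with a history of Math1 activity. Each of the 4 groups held 3 samples, each a pool of several animals, and total RNA was read on Illumina BeadChips. The number of animals per pool was not given in the sources used here. Each p-value therefore rests on the variation among pools, part of which may be technical. All P0 samples lay on one BeadChip and all P21 samples on the other, and age cannot be told apart from BeadChip. Tumors filled array positions A to C and wild-type CP positions D to F of each chip, so genotype and position are likewise confounded.

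Ribosomal proteins clothe the ribosomal RNA of the 40S subunit, which reads the message, and of the 60S subunit, which joins the amino acids. Their messages are among the most abundant in most cells and many start with a terminal oligopyrimidine (TOP) run of C and T, through which mTOR complex 1 sets how strongly they are translated. Growing and dividing cells make many ribosomes, so the family is often read as a sign of growth. The CP epithelium is a secretory tissue that exports transthyretin and other proteins into the cerebrospinal fluid.

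Promoter sequences of 41 of the 49 genes were found in a RefSeq table of build GRCm38.p6. A run of at least 8 pyrimidines (C or T only, read on the gene's own strand) within 15 bases on either side of the annotated start was present in 18 of the 41 genes (43.9%), against 13.9% of 27025 genes. The stretches below are shown because their genes carry later results. Rpl38, Rps26, Rps24, Rps21 and Rpl37 were lower at P21 in both genotypes by their brightest probes, and they are all such members with a promoter in the table. Rps19 had the largest tumor difference at P0, and Rps15a and the brightest probe of Rpl23 did not follow the family. Each has 60 bases before the annotated start and 15 from the start on, 5′ to 3′ on the gene's strand. Capitals mark only the longest pyrimidine run of at least 8 within 15 bases on either side of the start. Other runs are left in lower case, among them tcttccctc across the start of Rps15a and runs farther upstream in Rps26 and Rpl38.
Rpl38: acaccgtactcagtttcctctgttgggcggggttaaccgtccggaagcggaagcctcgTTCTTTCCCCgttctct
Rps26: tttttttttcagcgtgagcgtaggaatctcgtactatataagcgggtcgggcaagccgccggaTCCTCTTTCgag
Rps24: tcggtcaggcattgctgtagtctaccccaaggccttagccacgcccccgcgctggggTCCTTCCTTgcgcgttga
Rps21: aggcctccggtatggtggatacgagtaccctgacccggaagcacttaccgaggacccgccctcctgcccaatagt
Rpl37: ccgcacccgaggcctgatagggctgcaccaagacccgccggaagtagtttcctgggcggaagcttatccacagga
Rps19: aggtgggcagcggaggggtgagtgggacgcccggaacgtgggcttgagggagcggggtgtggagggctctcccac
Rps15a: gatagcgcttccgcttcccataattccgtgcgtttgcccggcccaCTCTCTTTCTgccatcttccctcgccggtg
Rpl23: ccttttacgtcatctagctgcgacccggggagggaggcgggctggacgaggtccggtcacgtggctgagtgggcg
The stretches lie at chr11:114668520-114668594 (plus strand) for Rpl38, chr10:128626492-128626566 (minus strand) for Rps26, chr14:24490618-24490692 (plus strand) for Rps24, chr2:180257319-180257393 (plus strand) for Rps21, chr15:5116553-5116627 (plus strand) for Rpl37, chr7:24884853-24884927 (plus strand) for Rps19, chr7:118116133-118116207 (minus strand) for Rps15a and chr11:97782425-97782499 (minus strand) for Rpl23. Rps19 has 3 annotated starts and Rps24 and Rps21 have 2 each, and the start with the longest run is shown. The marked runs of Rpl38 and Rps15a are 10 bases long and those of Rps26 and Rps24 are 9. Within the same 15 bases on either side of the start, the longest run is 7 bases at Rps21 and Rps19, 6 at Rpl37 and 3 at Rpl23. A run was present in 3 of the 5 members shown that were lower with age in both genotypes. It was present in 9 of 16 members that were lower with age in tumors and in 9 of the 25 others with a promoter. Short motifs were searched on both strands of 300 bases (250 before the start and 50 after), where they may overlap each other. CCGGAAG, the core bound by ETS factors, was in 18 of the 41 promoters (43.9%) against 9.93% of all promoters. CACGTG, the E-box that Myc and its partners bind, was in 5 (12.2%, Rpl13a, Rpl19, Rpl23, Rpl34 and Rps19) against 8.09%. AAGATGGC, the core of the YY1 motif, was in 3 (7.32%) against 3.19%, and TATAAA was in 5 (12.2%) against 15.7%. A match describes these letters and is neither a binding site nor a cause of the levels below.

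The family sat near the top of the signal range on every array. Its median lay between the 93.6th and the 99.5th percentile of all genes, and the mean normalized level of a member ran from 9.09 for Rpl21 to 15.56 for Rps2 (log2 intensity). Brightness differs between probes for reasons other than abundance, so members are compared below with themselves across arrays and not with each other. The medians of raw signal were 32854, 10139 and 18611 in P0 tumors 1, 2 and 3, and 17973, 6686 and 10907 in P0 wild-type CP 1, 2 and 3. They were 6914, 8814 and 14107 in the P21 tumors, and 10016, 8277 and 6456 in P21 wild-type CP. Thus the first pool was the highest and the second the lowest of each genotype at P0.

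After normalization the median over the 49 genes was 14.55, 13.51 and 14.17 log2 units in the P0 tumors (14.08 ± 0.53, SD, n = 3) and 14.06, 12.93 and 13.41 in P0 wild-type CP (13.47 ± 0.57, SD, n = 3). It was 12.62, 12.95 and 13.48 in the P21 tumors (13.02 ± 0.43, SD, n = 3) and 13.15, 13.11 and 12.87 in P21 wild-type CP (13.04 ± 0.15, SD, n = 3). The groups overlap at each age, and the highest and lowest pools differed 2.06-fold in P0 tumors, 2.19-fold in P0 wild-type CP, 1.82-fold in P21 tumors and 1.21-fold in P21 wild-type CP. The median over all genes stayed between 8.81 and 8.95 on every array.

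**Figure D1:**
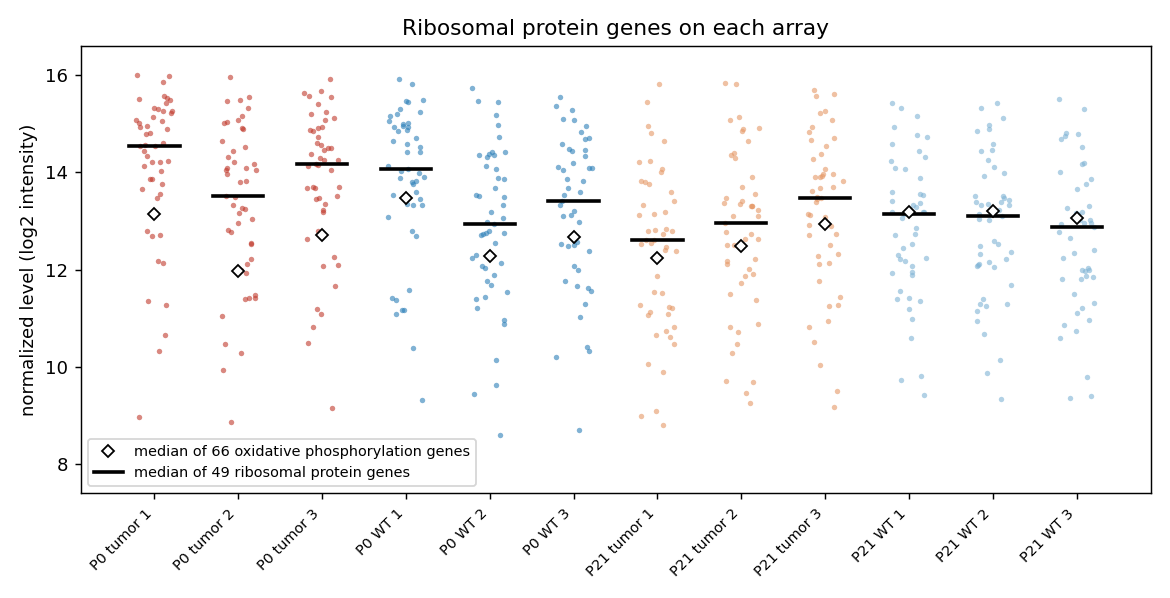
Each dot is the normalized level (log2 intensity) of 1 of the 49 ribosomal protein genes on 1 array, the bar is their median and the diamond is the median of 66 nuclear genes of oxidative phosphorylation. The bar moves by over 1 log2 unit within each P0 group, and the diamond moves with it, below the bar in every sample except P21 wild-type CP.

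Members moved together within groups. The pooled within-group SD was 0.45 log2 units for the median member against 0.32 for the median of all genes, and 41 of 49 members lay above the latter. Expressed as deviations from the group means, 58.9% of the members' sum of squares was held by the family median of each array. Over the 12 arrays, 30 members correlated at r of 0.9 or more with the median of the other members, with a median r of 0.93; the arrays share their group structure, so this r also holds the differences between groups. Rps13 and Rps19 (small-subunit proteins) followed the family closely, at r of 0.98 each.

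This joint movement was shared with genes of other machineries. From its group's mean the family median deviated by 0.38, -0.49 and 0.08 in P0 tumors, and the median of 66 nuclear genes of oxidative phosphorylation (the respiratory chain and ATP synthase) by 0.57, -0.65 and 0.13. In P0 wild-type CP the deviations were 0.57, -0.49 and -0.12 for the family and 0.68, -0.57 and -0.07 for the respiratory genes. In the P21 tumors they were -0.45, -0.02 and 0.46 for the family and -0.28, -0.13 and 0.44 for the respiratory genes. In P21 wild-type CP they were 0.04, 0.09 and -0.13 for the family and 0.04, 0.08 and -0.12 for the respiratory genes. The sign was the same on each of the 12 arrays, whereas the median of 17 cytosolic translation factors deviated by no more than 0.33 in either direction. One pool also differed in neuronal genes. The 3 of 5 neuronal markers that were tested (Stmn2, Syt1 and Rbfox3) had a median of 12.79 in P21 tumor 1, which had the lowest family median, against 6.20 to 9.35 on the other arrays. Their summed signal was 1096 to 26746 in the P21 tumors and 1391 to 2440 over the other groups. The part of nervous tissue in the family's level was not tested.

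**Figure D2:**
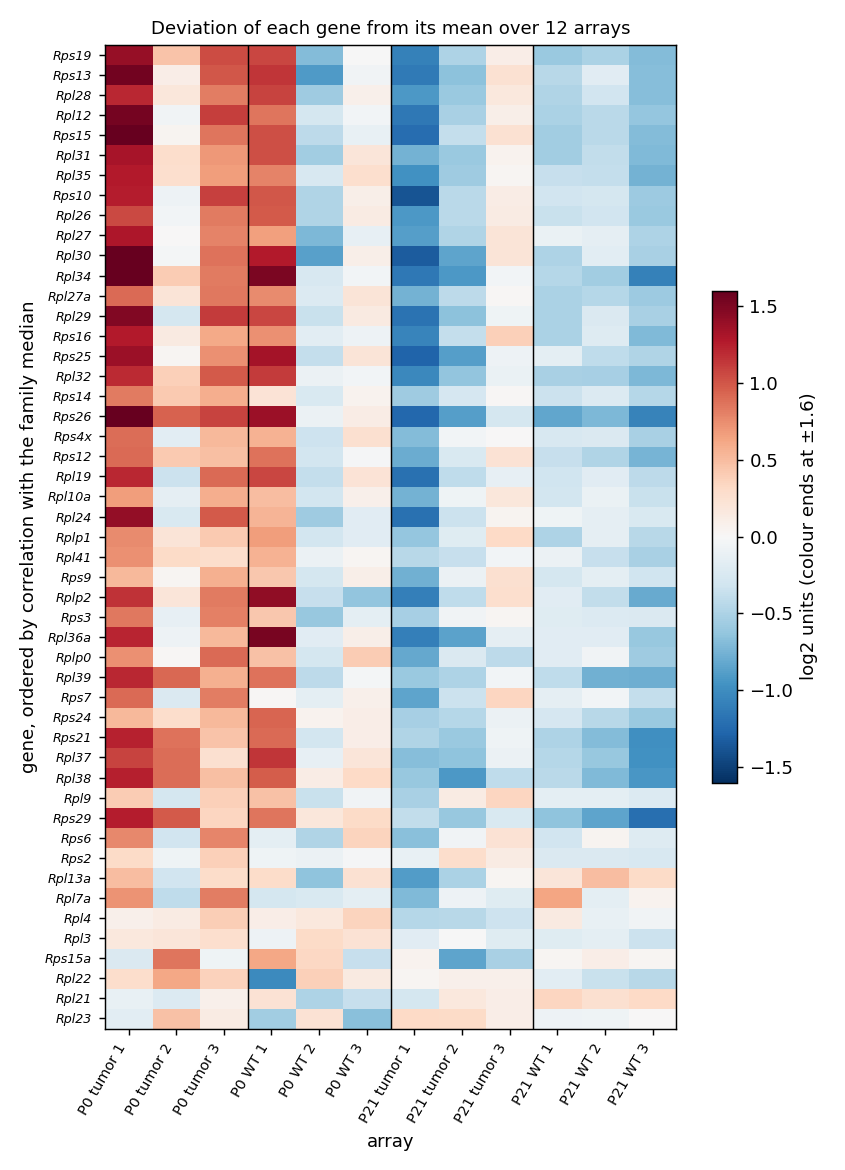
Colour gives each member's deviation from its own mean over the 12 arrays (log2 units), with members ordered by their correlation with the family median and vertical lines between groups. Most members are high in P0 tumor 1 and P0 wild-type CP 1 and low in P21 tumor 1, and the last rows, Rps15a, Rpl22, Rpl21 and Rpl23, do not follow.

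At P0, the first question is whether the tumors carried more ribosomal protein message than newborn CP. The means were higher in tumors for 47 of 49 members, by a median of 0.47 log2 units (1 of the 2 others, Rps15a, had -0.01 and the other, Rpl4, lay at 0 to the second decimal), whereas the median over all genes was -0.06 and the mean was higher in tumors for 44.6% of them. None passed: 0 of 49 members were called by limma at an adjusted p under 0.05, against a background of 11.3% of all genes, and 2 members had an unadjusted p under 0.05, against 25.2% of all genes. Members move together on an array, so these 47 are not independent of each other.

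Rps14, a small-subunit protein, came closest. Its levels were 15.48, 15.07 and 15.24 in P0 tumors and 14.87, 14.41 and 14.71 in wild-type CP. Every tumor pool lay above every wild-type pool, which held for no other member and for 10.4% of all genes, and the difference was 0.60 ± 0.21 (SE, limma adjusted p = 0.0855). Rps19, a protein needed to mature the small subunit and mutated in Diamond-Blackfan anaemia, had the largest difference, 0.84 ± 0.41 (adjusted p = 0.235). Its levels were 15.26, 14.32 and 14.91 in tumors and 14.94, 13.18 and 13.86 in wild-type CP, so that wild-type pool 1 lay above tumor pools 2 and 3. Rps13 had the same order, with 14.22, 12.78 and 13.67 in tumors against 13.82, 11.76 and 12.61.

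Over all genes, P0 tumor and wild-type pools of the same number deviated together for numbers 1 and 2 (r = 0.425 and 0.432) and barely for number 3 (r = 0.104). Tumor pools of unlike number and unlike age gave r from -0.392 to 0.355, so an r of about this size does not by itself mark a pair. For number 3 the family median deviated by 0.08 in the tumor and by -0.12 in wild-type CP. The labels do not say that a number pairs samples. Taken number by number, the median tumor difference of the family was 0.26, 0.42 and 0.54 for numbers 1, 2 and 3, and 41, 45 and 49 of 49 members were higher in the tumor. In all 3 numbers at once the tumor was higher for 38 of 49 members (77.6%) against 20.1% of all genes, and it was lower in all 3 for 0 members against 25.9% of all genes. With the number as a block, 0 members passed.

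By role, the fixed members read as follows at P0. The stalk proteins, which recruit elongation factors, differed by 0.35 ± 0.29 for Rplp0, 0.39 ± 0.30 for Rplp1 and 0.59 ± 0.50 for Rplp2 (SE). Rps6, the protein that S6 kinases phosphorylate, differed by 0.50 ± 0.33, with 14.24, 13.16 and 14.25 in tumors and 13.32, 12.99 and 13.83 in wild-type CP. Rpl22, which is dispensable for most translation and also binds other RNAs, differed by 0.58 ± 0.30. Its 12.70, 13.04 and 12.79 in tumors faced 11.41, 12.80 and 12.57 in wild-type CP, where pool 1 stood low although the family was high there. The very small 60S proteins Rpl38, Rpl39 (which lines the exit tunnel) and Rpl41 (which reaches to the small subunit) differed by 0.41 ± 0.27, 0.76 ± 0.31 and 0.27 ± 0.23. Rps4x, the X-linked small-subunit protein, differed by 0.25 ± 0.31. Adjusted p-values of these 9 ran from 0.141 (Rpl39) to 0.671 (Rps4x), all in limma, and the overlap of the groups is plain in each.

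The P0 count depended on single pools. Without wild-type pool 1, the wild-type pool with the most family signal, 3 members passed (8.74% of all genes passed in that fit) and the median difference was 0.71. Without tumor pool 2, 2 members passed (14% of all genes) with a median of 0.70, and without wild-type pool 2, 1 passed (12.1% of all genes) with a median of 0.21. These counts are lower shares than those of all genes. Without tumor pool 1 the median was 0.25 and 0 passed. P0 wild-type pool 1, high in family signal, and P21 tumor pool 1, high in neuronal genes, were also left out together. In that fit 6 members passed, all higher in tumors, against 4.93% of all genes, with a median of 0.71. Leaving out the wild-type pool with the most family signal raises the tumor difference by construction, so this count is not read as a tumor effect.

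At P21 the members' differences lay on both sides of 0. Tumor means were higher for 29 members (45.8% of all genes) and lower for 20, with a median of 0.04 log2 units (all genes -0.05), and 0 of 49 passed in limma against a background of 17.9% of all genes. An unadjusted p under 0.05 was found for 2 members, against 29.5% of all genes. By number the median difference was -0.48, -0.09 and 0.57, so its sign depended on the pool. The largest negative difference was that of Rpl13a, a 60S protein also known for restraining translation of inflammatory messages in human cells, at -0.79 ± 0.31 (adjusted p = 0.106). Its levels were 9.89, 10.28 and 10.82 in tumors and 10.99, 11.29 and 11.10 in wild-type CP, with no overlap. The largest positive one was that of Rps29, a zinc-binding small-subunit protein, at 0.48 ± 0.27 (adjusted p = 0.271), with 13.77, 13.56 and 13.93 in tumors and 13.53, 13.33 and 12.96 in wild-type CP, again with no overlap. The groups were separate for 4 members higher in tumors (Rpl22, Rpl23, Rps2 and Rps29; 21.1% of all genes) and 3 lower (Rpl13a, Rpl21 and Rpl4; 23.9% of all genes). Dropping tumor pool 3 turned the median to -0.24 and dropping tumor pool 1 raised it to 0.24, still with 0 members called.

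The difference between the tumor effects at the 2 ages, tested as an interaction, was negative for 45 of 49 members with a median of -0.49 (all genes 0.02). It passed for 0 of 49 members in limma, against a background of 4.43% of all genes. In addition, 2 members had an unadjusted p under 0.05, against 17.0% of all genes. The lowest adjusted p was 0.227. The median rested on single pools: it was -0.27 without P0 tumor 1, -0.28 without P0 wild-type pool 2 and -0.26 without P21 tumor 1. Rpl24, a 60S protein at the bridge between subunits, had -1.12 ± 0.60 (SE), from 0.78 at P0 to -0.34 at P21, and Rpl7a, a 60S protein, had -1.11 ± 0.45, from 0.61 to -0.51.

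Because the respiratory genes tracked the same movement between pools, the family was also read against them on each array. The family median minus the median of the 66 respiratory genes was 1.41, 1.54 and 1.45 log2 units in P0 tumors and 0.60, 0.65 and 0.72 in P0 wild-type CP. At P21 it was 0.36, 0.46 and 0.54 in tumors and -0.03, -0.10 and -0.19 in wild-type CP. At both ages the tumor pools lay above the wild-type pools without overlap, by 0.81 at P0 and 0.56 at P21. This order held under all 6 normalizations tried. A shift of a whole array cancels in such a difference, so these settings test the order only weakly. A difference within an array shows that the 2 lists changed unequally and not which of them changed. The respiratory list itself had median tumor differences of -0.20 at P0 and of -0.54 at P21. In that list 3 of 66 genes were called lower at P0, beside 778 of all 12379 genes. At P21 2 of 66 were called lower, beside 7.44% of all genes.

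Against 71 mitochondrial ribosomal proteins, which build the separate ribosome of that organelle, the family median stood 3.36, 3.41 and 3.11 higher in P0 tumors and 2.66, 2.43 and 2.49 higher in P0 wild-type CP. At P21 these values were 2.29, 2.25 and 2.57 in tumors and 2.07, 2.03 and 1.94 in wild-type CP. The tumor pools again lay above the wild-type pools at both ages, except at P21 with median scaling, where they overlapped. Against the 17 cytosolic translation factors, which work with the ribosome itself, there was overlap at both ages: 1.00, 0.41 and 0.57 in P0 tumors against 0.64, -0.41 and -0.11 in wild-type CP, and -0.31, -0.43 and 0.19 in P21 tumors against -0.18, -0.27 and -0.46. Thus the separation of tumor from wild-type CP depended on the list of comparison.

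**Figure D3:**
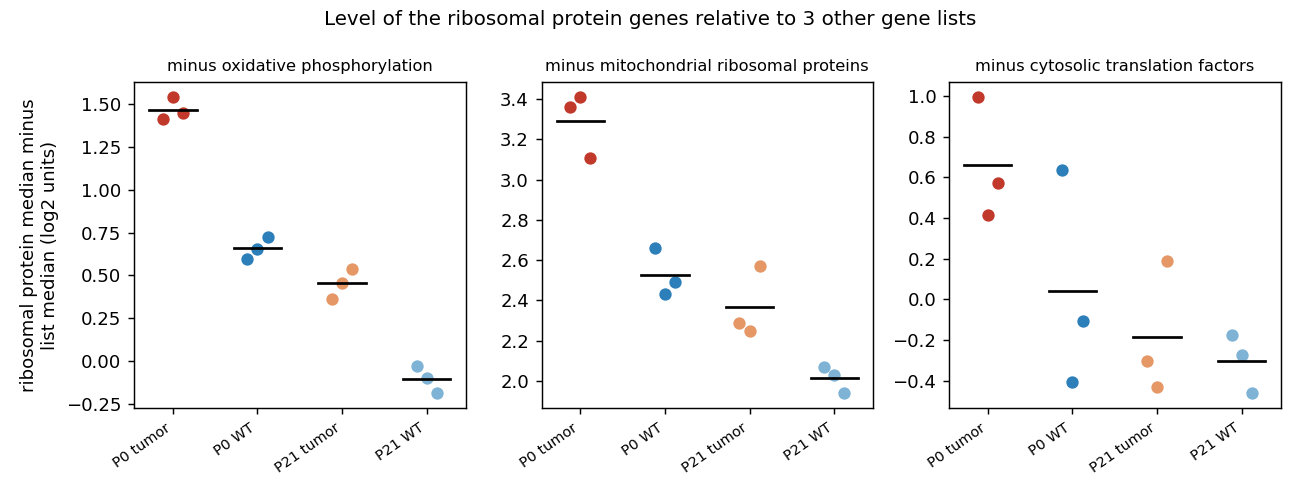
Each dot is 1 pool and gives the median of the 49 ribosomal protein genes minus the median of another list on the same array (log2 units), with bars at the group means. Tumor pools lie above wild-type pools of their age for the respiratory and the mitochondrial ribosomal genes, and overlap with them for the translation factors.

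With the respiratory median of each array added to the fit as a covariate, a choice made after the data were seen, 24 of 49 members were higher in P0 tumors at a limma adjusted p under 0.05, against 8.05% of all genes in that fit. Rps13 was higher by 1.14 ± 0.17 (SE, adjusted p = 0.00106), Rps19 by 1.08 ± 0.18 (adjusted p = 0.00182) and Rpl30, a 60S protein, by 1.08 ± 0.17 (adjusted p = 0.00155). Rpl27 was higher by 1.00 ± 0.14 (adjusted p = 0.000923) and Rpl24 by 1.04 ± 0.18 (adjusted p = 0.00292). These are differences at equal respiratory level and not differences in amount. Rpl3, which lies near the peptidyl transferase centre, differed by 0.02 ± 0.15, and Rpl4 by -0.0035 ± 0.16. Leaving out 1 pool at a time, 17 to 25 members were higher at P0, beside 4.35% to 9.69% of all genes. The interaction with the covariate had a median of -0.16 with 14 members positive, and 0 passed (10.6% of all genes).

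At P21 the same fit called 20 of 49 members higher in tumors at equal respiratory level, against 13.4% of all genes. The members' median was 0.56 with the covariate and 0.04 without it. The respiratory median was itself lower in P21 tumors (12.25 to 12.94) than in P21 wild-type CP (13.06 to 13.20). By construction, the covariate therefore raises the tumor difference of members that follow it. The 20 included Rps15 at 0.93 ± 0.20 (adjusted p = 0.0056), Rps13 at 0.84 ± 0.19 (adjusted p = 0.00843, -0.07 without the covariate) and Rps19 at 0.82 ± 0.20 (adjusted p = 0.0112). This count rested on few pools: it fell to 1 without tumor pool 3 (10.1% of all genes were higher), to 9 without tumor pool 2 (10.2%), to 10 without wild-type pool 1 or wild-type pool 2 (10.4% each), to 8 without wild-type pool 3 (10.7%) and to 13 without P0 wild-type pool 2 (12.7%). Of the members called, 16 passed at both ages, which is 66.7% of the P0 calls and 80.0% of the P21 calls. Both comparisons share the slope of the covariate and the estimate of the spread. No share of all genes called at both ages is given here, so this overlap is not read as a result about the members. Without P0 wild-type pool 1 and P21 tumor pool 1 together, 26 members were higher at P0 (8.93% of all genes) and 28 at P21 (15.5% of all genes), with 1 lower at P21.

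**Figure D4:**
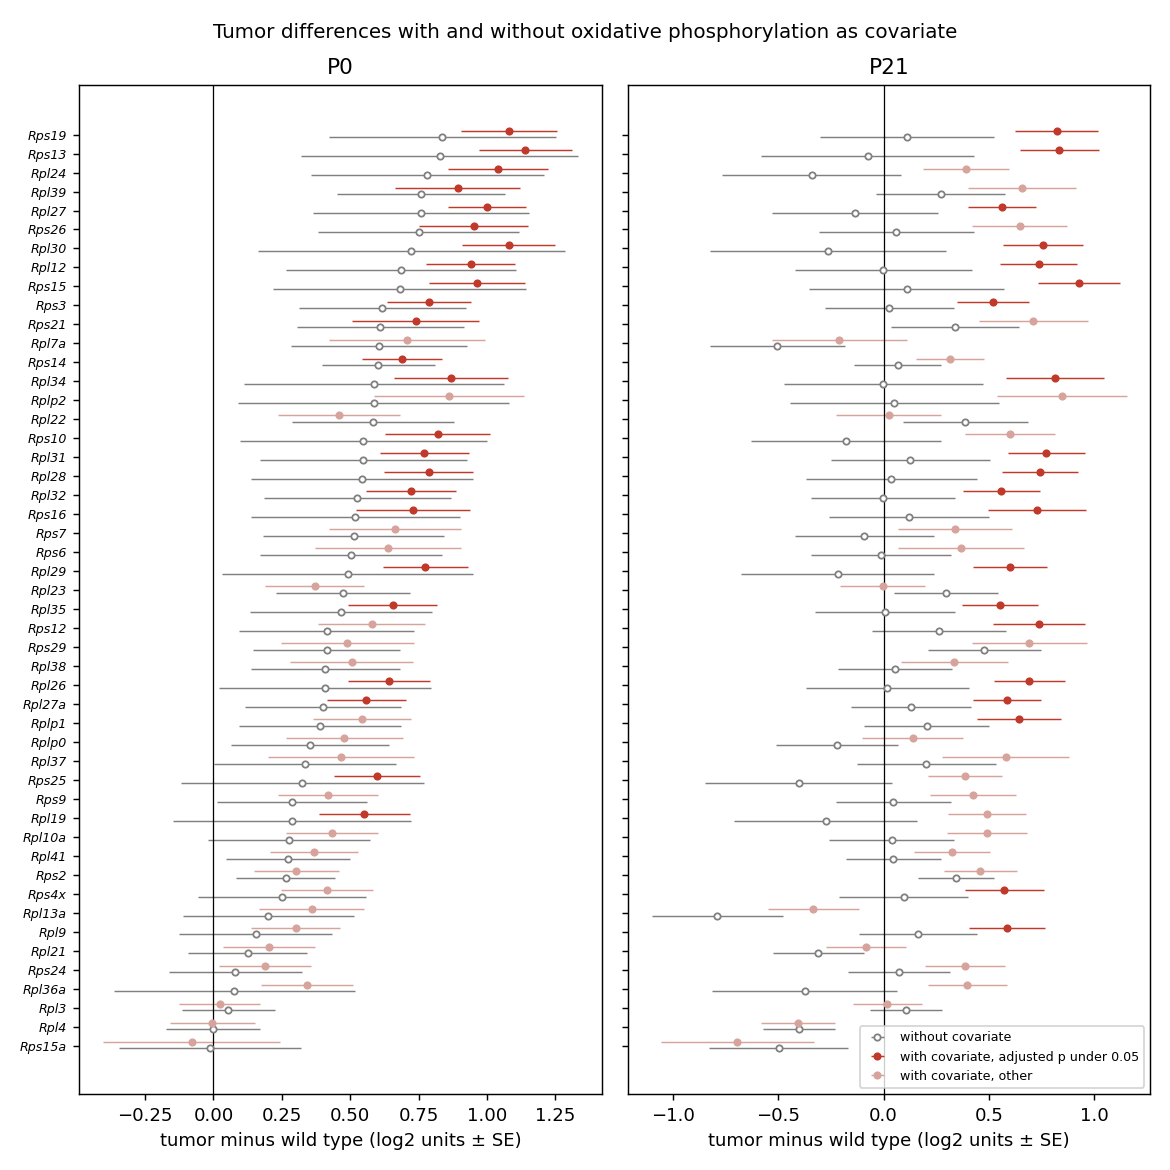
For each member, the tumor minus wild-type difference (log2 units, bars are SE) at P0 and P21 is shown without the covariate (open) and with the respiratory covariate (filled, dark where the adjusted p is under 0.05). With the covariate, chosen after the data were seen, 24 members pass at P0 and 20 at P21, against 0 without it. The filled values are differences at equal respiratory level and not differences in amount.

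Tissue makeup differed between the same groups. The summed signal of 5 dividing-cell genes was 12153 to 12319 in P0 tumors, 1348 to 1733 in P0 wild-type CP, 889 to 1240 in P21 tumors and 475 to 586 in P21 wild-type CP, and all 5 rose in P0 tumors. The summed signal of 8 CP epithelial genes was 211868 to 264680 in P0 tumors and 246879 to 318971 in P0 wild-type CP, and 241657 to 247158 in P21 tumors against 307071 to 313156 in P21 wild-type CP. Macrophage genes summed to 6356 to 9343 in P21 tumors against 2682 to 2880 in P21 wild-type CP, where 3 of 5 tested rose, and to 4801 to 6648 against 3894 to 5881 at P0. The 5 endothelial genes summed to 8105 to 9202 in P0 tumors, 11324 to 12860 in P0 wild-type CP, 3450 to 5096 in P21 tumors and 4386 to 7433 in P21 wild-type CP. With age, 5 of them were lower in tumors and 3 in wild-type CP. In bulk tissue, fewer cells of a type and less RNA per cell cannot be told apart, and the part of these cell types in the family's level was not tested.

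Read by their brightest probes, all members that passed with age were lower at P21 than at P0. In wild-type CP 6 of 49 members were lower at P21 and 0 higher at an adjusted p under 0.05, against a background of 13% lower among all genes, with a median of -0.59 (all genes -0.05). These 6 are 12.2% of the members, near the share of all genes. The wild-type median was -0.26, with 11 members positive, without P0 wild-type pool 1 and -0.93 without pool 2. In tumors 20 of 49 were lower and 0 higher, against 10.3% lower among all genes, with a median of -1.04 (all genes -0.03). Each of the 6 wild-type calls was also among the 20. The difference between the 2 age effects is the interaction given above, which passed for 0 members. Age and BeadChip cannot be told apart, so each of these values is a difference between chips as well.

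By their brightest probes, the 6 members lower in both genotypes were Rps26, Rps29, Rpl38, Rpl37, Rps21 and Rps24. Dimmer probes of Rpl38, Rpl37 and Rps24 did not pass in either genotype. In wild-type CP they gave -0.263 for Rpl38, 0.803 for Rpl37, and 0.307 and -0.105 for Rps24. In tumors they gave -1.12 for Rpl38, 0.067 for Rpl37, and -0.915 and -0.137 for Rps24, so these falls depend on the probe. Rps26, which contacts the message at the exit channel of the 40S subunit, had the largest difference in tumors. Its levels were 14.02, 13.34 and 13.47 in P0 tumors and 11.13, 11.51 and 12.11 in P21 tumors, a difference of -2.03 ± 0.37 (SE, limma adjusted p = 0.00197). In wild-type CP they were 13.76, 12.30 and 12.51 at P0 and 11.56, 11.68 and 11.32 at P21, a difference of -1.34 ± 0.37 (adjusted p = 0.0226). The ages do not overlap in either genotype, although P0 wild-type pool 1 stands far above the other P0 wild-type pools.

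Rps29 was 15.43, 15.15 and 14.51 in P0 tumors and 13.77, 13.56 and 13.93 in P21 tumors (-1.28 ± 0.27, adjusted p = 0.00509), and 15.02, 14.35 and 14.48 against 13.53, 13.33 and 12.96 in wild-type CP (-1.34 ± 0.27, adjusted p = 0.00402). Rpl38, whose loss in mice alters the patterning of the axial skeleton, was 15.27, 14.92 and 14.51 against 13.42, 13.11 and 13.62 in tumors (-1.51 ± 0.27, adjusted p = 0.00182). In wild-type CP it was 14.99, 14.14 and 14.34 against 13.59, 13.32 and 13.09 (-1.16 ± 0.27, adjusted p = 0.00971). Every P0 pool of both genes lay above every P21 pool of its genotype. The brightest probe of Rps24, a small-subunit protein also linked to Diamond-Blackfan anaemia, fell by 0.80 in both genotypes (adjusted p = 0.0349 in tumors and 0.0369 in wild-type CP). The brightest probe of Rpl37 fell by 1.21 in tumors and 1.08 in wild-type CP, and Rps21 fell by 1.24 and 0.96. Between pools these genes did not follow the family fully. In P0 tumor 2, where the family median was the lowest of its group, Rps29 (15.15), Rpl38 (14.92), Rpl37 (14.89) and Rps21 (14.09) lay above tumor pool 3 (14.51, 14.51, 14.26 and 13.68).

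By their brightest probes, the other 14 members lower at P21 in tumors were Rpl34, Rpl12, Rpl27a, Rpl29, Rpl31, Rpl32, Rpl35, Rpl39, Rpl4, Rpl41, Rplp0, Rps14, Rps19 and Rps25. Dimmer probes gave -0.317 and -0.0834 for Rpl31, -1.03, 0.173 and -0.135 for Rpl27a, -1.43 for Rpl29 and -0.679 for Rps19. None of these dimmer probes passed. The calls of Rpl27a and Rpl31 were lost with the mean of a gene's probes, so these 2 falls depend on the probe. Rpl34 had the largest difference among the 14, -1.69 ± 0.47 (adjusted p = 0.0246), with 13.55, 12.22 and 12.64 at P0 and 10.66, 10.89 and 11.77 at P21, with no overlap. Rplp0, a gene often taken as a reference for quantitative PCR, was 10.65, 9.94 and 10.83 at P0 and 9.10, 9.69 and 9.50 at P21 in tumors (-1.04 ± 0.29, adjusted p = 0.0234). In wild-type CP Rplp0 was 10.39, 9.63 and 10.33 at P0 and 9.73, 9.87 and 9.36 at P21, with overlap (-0.47 ± 0.29, adjusted p = 0.287). By subunit, 7 of 19 small-subunit and 13 of 30 large-subunit members were lower in tumors, beside 10.3% of all genes. In wild-type CP 4 of 19 and 2 of 30 were lower, beside 13% of all genes.

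The age counts varied with the pools. The tumor count was 7 without P0 tumor 1, P21 tumor 1 or P21 tumor 2, where 15.7%, 15.9% and 14% of all genes passed in either direction, and 8 without P0 tumor 3 (14.8%). It was 31 without P21 tumor 3 (17.1%), 35 without P0 tumor 2 (22.4%) and 32 without P0 wild-type pool 1 (24.6%). The wild-type count was 2 without any 1 of the P21 wild-type pools (13.4% each) and 3 without P21 tumor 2 (18.1%). It was 4 without P0 wild-type pool 1 (18%), where 1 of the 4 was higher, 4 without pool 3 (16.4%) and 9 without pool 2 (20.4%). The 12 brightest members, near the top of the scanner's range, had a median within-group SD of 0.32 and a median tumor difference with age of -0.60, with 3 called, against 0.51 and -1.21, with 17 called, for the other 37. Among all genes, 10.3% were called lower with age in tumors. Rpl38, Rps26 and Rps29 kept their tumor call, and Rps29 its wild-type call, in all 23 alternatives that changed the background correction, normalization, filter, probe rule, block, weights or set of arrays by 1.

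**Figure D5:**
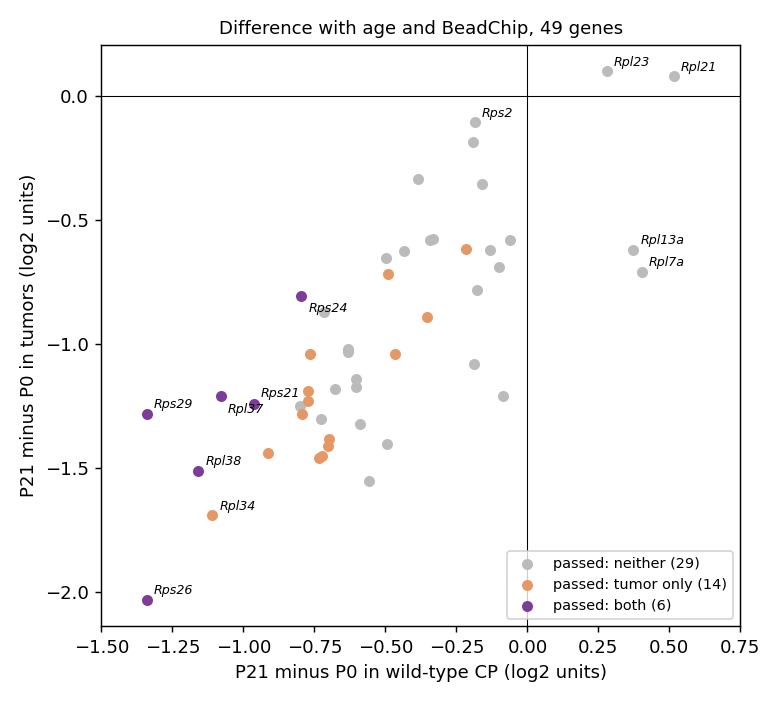
Each dot is 1 of the 49 members, placed by its P21 minus P0 difference in wild-type CP and in tumors (log2 units), purple where it passed in both genotypes, orange where it passed in tumors and grey where in neither. Most lie below 0 on both axes, Rps26 lowest on the tumor axis, and Rpl23 and Rpl21 lie above 0 on both.

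Some members did not share the family's course. Rpl23, a 60S protein that also binds the p53 regulator Mdm2, correlated with the median of the others at r = -0.38 over the 12 arrays. Its levels were 15.33, 15.97 and 15.63 in P0 tumors, 14.95, 15.73 and 14.84 in P0 wild-type CP, 15.82, 15.81 and 15.61 in P21 tumors and 15.42, 15.43 and 15.51 in P21 wild-type CP. P0 wild-type pool 2, the lowest for the family, was thus the highest of its group for this probe. The 2 other probes of Rpl23 followed the family (r = 0.94 and 0.87), and its dimmer ones gave -1.18 and -0.87 for the age difference in tumors against 0.10 for the brightest, so the gene's course depends on the probe.

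Rpl21, a 60S protein, was at 8.97, 8.86 and 9.16 in P0 tumors and 9.43, 9.34 and 9.40 in P21 wild-type CP, with r = 0.04. It was the 1 member whose wild-type pools were all higher at P21 than at P0 (8.60 to 9.31 at P0), which held for 17.4% of all genes, and the difference of 0.52 ± 0.22 did not pass (adjusted p = 0.118). Its 3 probes gave differences of 0.52 to 0.56 there. Rps15a (r = 0.10) stood at 10.33, 11.42 and 10.49 in P0 tumors, high in the pool where the family was low, and Rpl22 had r = 0.08. Rpl3, at 15.30, 15.33 and 15.40 in P0 tumors and 15.06, 15.44 and 15.37 in P0 wild-type CP, had the smallest within-group SD, 0.13.

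Of the 49 members, 16 were read by more than 1 probe, 71 probes in all. Probes of 1 gene were called in opposite directions in 0 genes, but their differences had both signs in 3 genes for the tumor comparison at P0 and in 9 at P21. For age, both signs occurred in 7 genes in wild-type CP and in 4 in tumors. The dim probe of Rps13 had r = -0.46 with the family against 0.98 for the bright one, and its age difference in wild-type CP was 1.71 (limma adjusted p over all probes = 9.49e-05) against -0.50. In tumors it was 0.81 (adjusted p = 0.0103) against -1.40, so the dim probe was higher with age in both genotypes. Ribosomal protein genes have many processed pseudogenes and near-identical copies in the mouse genome, and these arrays cannot tell such transcripts from those of the genes, so every member's level is uncertain to that extent.

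Among paralogs and relatives outside the family's naming rule, 6 of 8 were tested. Rpl3l, the striated-muscle paralog of Rpl3, was not above background in any P0 tumor pool and was detected in all 3 P0 wild-type pools, at 6.34, 6.44 and 6.37, so that it was at least 1.64-fold lower in tumors (limma adjusted p = 0.00716). Rps4l, a relative of Rps4x, rose in P21 tumors, with 8.83, 8.61 and 9.16 against 7.51, 7.68 and 7.77 in wild-type CP (1.21 ± 0.30, adjusted p = 0.0132). It lay at 10.06, 8.80 and 9.70 in P0 tumors and 8.44, 8.47 and 9.01 in P0 wild-type CP (0.88 ± 0.30, adjusted p = 0.082). Rps27l, a p53 target, gave 0.29 and -0.59 at P0 and P21, Rpl36al 0.53 and -0.58, Rpl7l1 0.43 and -0.10, and Rpl22l1 0.05 and -0.60, and none of the 4 passed. Rps3a1, the mouse gene of a core 40S protein, falls outside the rule by its final digit, and its differences of 0.15 at P0 and -0.37 at P21 did not pass either (adjusted p = 0.857 and 0.579).

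Genes that make or regulate ribosomes were read from lists. Of 24 ribosome biogenesis genes, 2 rose in P0 tumors and 0 fell: Gar1, a protein of H/ACA particles that modify ribosomal RNA, by 0.92 ± 0.25 (adjusted p = 0.0339, lost with the replicate block and in 12 of 26 alternatives in all, where p reached 0.526), and Rrp1b, a nucleolar protein, by 0.75 ± 0.20 (adjusted p = 0.0286). At P21 0 rose and 3 of 24 fell, beside 7.44% of all genes: the 40S assembly factors Pno1 (-0.93 ± 0.25, adjusted p = 0.0189), Rrp12 (-0.67 ± 0.18, adjusted p = 0.0199) and Ltv1 (-0.65 ± 0.19, adjusted p = 0.0316). The calls of Pno1 and Ltv1 were lost in 6 and 9 of 26 alternatives. Other 40S assembly factors of the list did not pass at P21, with -0.45 for Tsr1 (adjusted p = 0.14), -0.15 for Nob1 (0.729) and -0.11 for Emg1 (0.874). Of 11 genes of RNA polymerase I and its factors, Tcof1, the nucleolar treacle protein, rose at P0 by 1.23 ± 0.26 (adjusted p = 0.0107), and 0 passed at P21. The median differences of the biogenesis list were 0.11 and -0.29, and those of the polymerase I list 0.21 and -0.04.

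Of 71 mitochondrial ribosomal proteins, Mrpl35 fell at P0 (-0.74 ± 0.21, adjusted p = 0.0374), and Mrpl39 (-1.20 ± 0.33, adjusted p = 0.0228) and Mrps2 (-0.83 ± 0.17, adjusted p = 0.00505) fell at P21, while 0 rose at either age. Among all genes 11.3% passed at P0 in either direction, and 7.44% fell at P21. The call was lost in 13 of 26 alternatives for Mrpl35, 5 of 25 for Mrpl39 and 1 of 26 for Mrps2. Of 17 cytosolic translation factors, 0 passed at either age, with medians of 0.05 and -0.19. Of 15 genes of the S6 kinases and mTOR complex 1, Eif4e, the cap-binding protein, fell at P0 (-0.79 ± 0.20, adjusted p = 0.0217) and at P21 (-1.01 ± 0.20, adjusted p = 0.00303). Its call was lost in 5 of 26 alternatives at P0 and in 1 of 26 at P21. Eif4e also works in translation but was counted in this list and not among the 17 translation factors. Rps6ka5, a kinase of chromatin and transcription factors, rose at P21 (1.31 ± 0.26, adjusted p = 0.00343). Of 8 genes of the Myc family and its partners, Mycl rose at both ages, with 11.41, 11.49 and 11.31 in P0 tumors against 10.39, 10.15 and 10.30 (1.13 ± 0.17, adjusted p = 0.0011), and 9.32, 9.19 and 9.11 in P21 tumors against 6.98, 7.23 and 6.98 (2.14 ± 0.17, adjusted p = 3.12e-06). Mxd1, a Myc antagonist, fell at P0 (-1.45 ± 0.33, adjusted p = 0.0152), and Mxd3, a relative found in dividing cells, was above background in the 3 P0 tumor pools and in 0 of the other pools, at least 1.43-fold higher than in P0 wild-type CP (adjusted p = 0.00336).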

How the data were processed

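The deposited scanner file lists, per the file headers and for 45281 probes on 12 arrays, the mean signal of a probe's beads, which is a raw linear intensity, and its detection p-value. The authors also deposited normalized intensity values by an unstated method; these served as an alternative, in log2 after a floor of 16. Of the probes, 34885 had one gene symbol in GEO's platform annotation and 18 several, and 10378 were not listed there. Symbols were updated through a RefSeq table of GRCm38.p6 by Entrez ID (34807) or accession (11), and 67 were kept.

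Background was corrected with normexp in limma 3.58.1 (R 4.3.3), with negative controls inferred from the detection p-values and an offset of 16, followed by quantile normalization and log2. Between 19043 and 23632 probes per array were detected. With 3 arrays per group, their number limits the precision. Each gene took the values of its brightest probe among those detected on at least 3 arrays. Group means were fitted to the 12 arrays together with lmFit and eBayes (8 residual and 4.21 prior degrees of freedom). P-values were adjusted by Benjamini-Hochberg over 12379 genes per comparison and a threshold of 0.05. The calculation was tested on simulated data.

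The members and lists were chosen with earlier results of these data known, so a score over them has no p. Named genes were the stalk proteins, Rps6, Rps19, Rpl22, Rpl38, Rpl39, Rpl41 and Rps4x, up to 5 passing members per direction and comparison, the paralogs left out by name, and up to 3 passing genes per list; other members were named after their values were seen. At P0 same-numbered pools deviated together (r = 0.425, 0.432 and 0.104), although the labels do not say that a number marks a shared litter or day; tumor 2 with wild-type 3 gave 0.097. At P21 r was -0.0818, -0.0277 and -0.139. Tumor pools of unlike number and unlike age gave r from -0.392 to 0.355. Alternatives were other background corrections, normalizations, filters and probe rules, the replicate block, array weights, fewer arrays, and 4 chosen after seeing the data.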

Additional observations from a re-analysis of the deposited data

Results flagged for a closer look

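None of the 49 ribosomal protein genes had a tumor effect that differed between the ages by the interaction test, but 8 of 254 genes of the comparison lists (3.15%) did, at a limma adjusted p under 0.05, against 4.43% of all genes. The P21 effect minus the P0 effect, in log2 units, was 1.44 for Rps6ka5 (adjusted p = 0.0445, from -0.13 to 1.31), 1.02 for Mycl (0.0292, from 1.13 to 2.14), 1.35 for the macrophage gene Csf1r (0.0353, from -0.14 to 1.21) and 1.97 for the fibroblast gene Col1a2 (0.00681, from 0.99 to 2.97). It was -1.06 for Kcne2, a potassium channel subunit of CP epithelium (0.0389, from -0.66 to -1.72), and, among dividing-cell genes, -2.19 for Mcm5 (0.00271, from 3.30 to 1.11), -2.12 for Aurkb (0.0127, from 2.70 to 0.59) and -1.81 for Kif11 (0.00869, from 2.42 to 0.61). The calls of Col1a2, Mcm5, Aurkb and Kif11 were each lost in 1 alternative, the scaling of each array to the members' own median (adjusted p = 0.0541, 0.286, 0.136 and 0.333). Those of Rps6ka5, Mycl and Kcne2 were lost with the replicate block and in 16, 12 and 14 of 25 alternatives in all, and that of Csf1r in 10 of 25.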

How the results depend on the processing

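Counts of members called changed with the settings as follows, and the causes were not tested beyond what a setting does by construction. At P0 (0 called) the count was 1 without background correction, 1 with the authors' values, 6 without P0 wild-type pool 1 and P21 tumor pool 1, and 0 to 3 leaving out 1 array. At P21 (0 called) it was 0 leaving out any 1 array, and 0 to 1 for the interaction. For age in wild-type CP (6) it was 3 with cyclic loess, 1 with median scaling, 3 with the mean of a gene's probes, 3 with only the arrays compared, and 2 to 9 leaving out 1 array. For age in tumors (20) it was 3 with median scaling and 7 to 35 leaving out 1 array. With the replicate number as a block it was 0 at P0, 1 (lower) at P21 and 0 for the interaction. For age it was 3 in wild-type CP and 13 in tumors. Joint deviation by number appears only at P0, for numbers 1 and 2, and the numbers are not known to pair samples. Array weights, whose estimation stopped before convergence (weights 0.171 to 16.4), gave 37 at P0, 5 at P21 (2 higher and 3 lower) and 23 for the interaction, and for age 19 in wild-type CP and 45 in tumors, while they also called 48.2% of all genes at P0 and 61.4% with age in tumors.

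Scaling each array to the members' own median removed the age calls in wild-type CP (0) and left 4 in tumors (3 higher, 1 lower). This scaling centres the family near 0 by construction, so that 25 of 49 members had a positive age difference in tumors. Among the members that passed before or after it, the difference was 0.0241 for Rpl27a, 0.0182 for Rplp0, 0.45 for Rpl4, 0.34 for Rpl41, 0.88 for Rpl9, 0.17 for Rps14, 0.96 for Rps2 and 0.26 for Rps24, with the sign turned. With the respiratory covariate the counts were 24 at P0, 20 at P21, 35 with age in wild-type CP and 40 in tumors, against 34% and 30.1% of all genes for the last 2. At P21 the sign turned from negative to positive for 15 members and the other way for 1. Among the members that passed with the covariate it turned for Rpl12 (0.74), Rpl27 (0.56), Rpl29 (0.60), Rpl30 (0.76), Rpl32 (0.56), Rpl34 (0.81) and Rps13 (0.84). The other settings kept each count within 1.5 times. Signals near the top of the range, and 3 arrays a group, limit what small differences could be seen.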
